A study of Mus musculus with 5 samples.

Results

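The genes described here are the neighbours of Csnk2b on mouse chromosome 17, without the antigen-presentation genes of the major histocompatibility complex (MHC) that lie among them. They were chosen by position and by level: genes of the count table that overlap the stretch from 30116196 to 40122053 of build mm10, which is Csnk2b with 5 Mb on each side, and whose mean over the 5 libraries was at least 1 CPM, the usual unit of a gene's count scaled to the total count of its library. Symbols that start with H2-, Rps, Rpl, Nduf or Hist were left out, as were Csnk2b and 13 named genes of antigen processing, heat shock, Notch and other groups. The stretch holds 482 of the 39179 genes counted, of which 64 were left out by symbol, 292 others were under 1 CPM, and 126 remained. The difference between the groups was not part of the rule, but the stretch was proposed after differences there had been seen, so counts over the 126 genes are a description. The level cut has a small part in them: A930015D03Rik and BC051226 averaged under 1 CPM in the controls and reached the cut through the KO libraries. Just inside the cut were Ly6g5b, Lst1 and Cyp4f39 at means of 1.09, 1.10 and 1.15 CPM. Just outside it were Gm26549, Tmprss3 and Gm18737 at 0.981, 0.981 and 0.944 CPM.

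The cells were fetal liver erythroid cells of mice 14.5 days post conception, isolated by cell sorting on TER119, a surface antigen of maturing red cell precursors. The 3 control libraries are labelled Csnk2b+/+ Vav+/Cre and the 2 KO libraries Csnk2bfl/fl Vav+/Cre, all on strain C57BL/6, so Cre recombinase, driven by the pan-hematopoietic Vav1 promoter, was present in every library. The controls carry no floxed allele. The floxed copies of chromosome 17 and the deletion of Csnk2b therefore occur together in the KO libraries, and a difference that came with the one cannot be told apart from a difference that followed the other. The labels do not say whether a library is 1 embryo or a pool, and p-values measure the spread between these libraries. In bulk RNA, fewer cells of a type and less RNA per cell cannot be told apart.

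CK2 is a protein kinase of 2 catalytic and 2 regulatory subunits, and Csnk2b encodes the regulatory one. The gene sits in the class III part of the MHC, a very gene-dense stretch between the class I and class II antigen-presentation genes. Class III and the flanking segments hold unrelated functions side by side: complement and cytokine genes, chaperones, RNA helicases, chromatin regulators, transporters and, toward lower coordinates, clusters of zinc finger genes. Olfactory receptor genes, which are expressed mainly in the nose, fill much of the far side. Neighbouring genes often share promoters or overlap on opposite strands, so a count table without strand information can mix their reads.

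Totals were 13187094 to 15366021 counts a library, so 1 CPM rests on 13.01 to 15.5 counts. Y-linked genes summed to 1142 counts in control replicate 3, beside 1 or 2 counts elsewhere, although that library also held Xist, at 547 CPM beside 788 to 1026 CPM in the others. The labelled cell type was borne out by its markers: 9 erythroid genes summed to 52980 to 64230 CPM in controls and 48120 to 61010 CPM in KO libraries, with no single marker past the threshold. Other lists moved with the genotype. Of 7 interferon-response genes all rose, from a sum of 29.3 to 44.8 CPM in controls to 1248 and 328 CPM in KO replicates 1 and 2. Of 12 macrophage markers 4 fell, and their sum went from 238 to 275 CPM in controls to 170 to 211 CPM in KO. The 5 hepatocyte markers (211 to 333 and 248 to 299 CPM) and 5 lymphoid markers (4.83 to 6.45 and 4.93 to 5.30 CPM, with Cd3e at 0 in every library) overlapped between the groups. These lists were chosen with results known, and their part in the results below was not tested.

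The comparison asked how the neighbours of the targeted gene differed between KO and control cells. Most neighbours did not pass the test, and those that did were nearly all higher in KO cells by small folds. At an adjusted p under 0.05 in edgeR's quasi-likelihood test, adjusted over all 13000 genes tested, 16 of 126 neighbours rose, 1 fell and 109 did not pass. That is 13.5% of the neighbours called, beside 6.98% of all genes tested. By direction it is 12.7% higher, beside 5.15% of all genes, and 0.794% lower, beside 1.83%. The median log2 fold change was 0.11 over the neighbours and 0.01 over all genes. Both KO libraries lay above all 3 controls in 41 neighbours (32.5%, beside 21.9% of all genes tested) and below them in 18 (14.3%, beside 19.3%). The groups overlapped in the other 67.

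Among the 16 that rose the median fold was 1.43, the smallest was 1.26 and 3 reached 2-fold (A930015D03Rik, BC051226 and Kank3, all at or under 5 CPM in every library). KO replicate 2 was the higher KO library in 13 of the 16, beside 75 of the 126 neighbours and 6580 of the 13000 genes tested. The calls depended on each library. The main fit called 17 of 126 neighbours, beside 907 of 13000 genes tested. Without control replicate 1 it was 3 of 126, beside 283 of 12861. Without control replicate 2 it was 4 of 126, beside 241 of 12985. Without control replicate 3 it was 4 of 126, beside 400 of 12891. In these 3 fits the neighbours' share stood nearer to that of all genes than in the main fit. Only Clic1, Gpank1 and A930015D03Rik passed in each of the 5 fits that left out a library, and the other 14 missed the threshold in at least 3 of them. Without KO replicate 2 the neighbours' median log2 fold change was 0.05, beside -0.013 over all genes. Without KO replicate 1 it was 0.13, beside -0.002 over all genes. Those fits leave a lone KO library, which is assumed to vary like the controls. Without a filter on low counts 4 of 126 neighbours were called, beside 288 of 21077 genes.

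**Figure D1:**
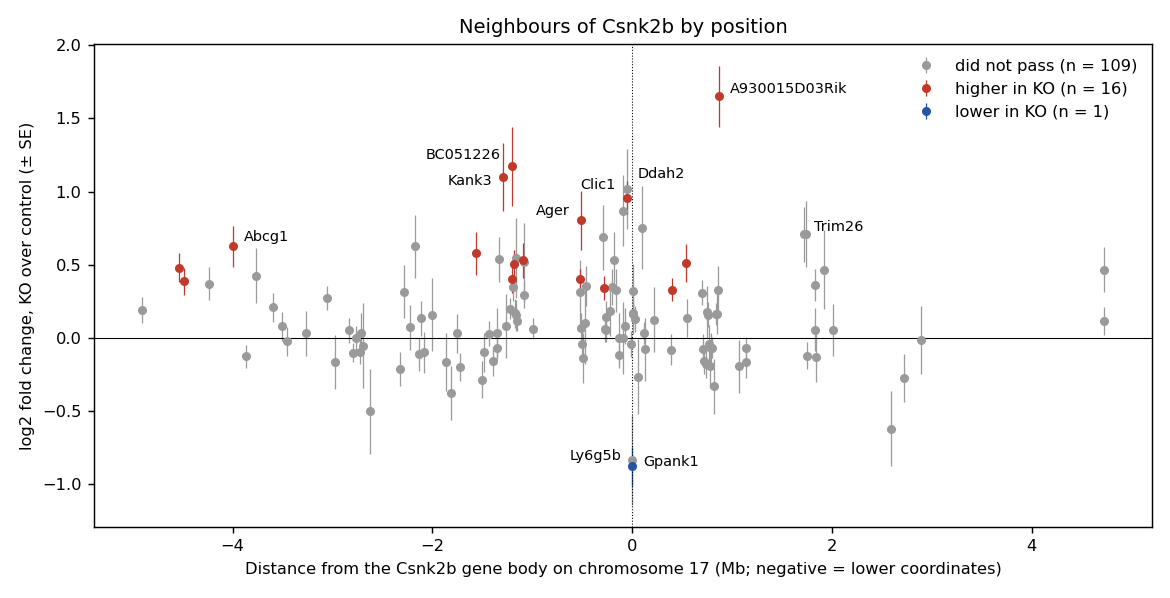
Log2 fold change of each of the 126 neighbours, KO over control with its SE, against the distance of its gene body from Csnk2b in Mb. Red points passed the edgeR test as higher (16), the blue point as lower (1) and grey points did not pass (109); Gpank1 and Ly6g5b lie at or beside Csnk2b, and no neighbour lies between 2.9 and 4.7 Mb on the side of higher coordinates.

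Csnk2b itself had 186, 186 and 169.5 CPM in the controls and 112 and 95.6 CPM in the KO libraries, a 1.74-fold decrease (edgeR adjusted p = 0.0018). Gpank1, a G-patch and ankyrin repeat protein gene on the opposite strand, was the 1 neighbour that fell. It stood at 12.9, 14.5 and 13.7 CPM in the controls and at 8.07 and 6.87 CPM in the KO libraries. Both KO libraries lay below every control, and the group means were 13.7 CPM ± 0.78 (SD, n = 3) and 7.47 CPM ± 0.85 (SD, n = 2). On the log2 scale the difference was -0.88 ± 0.13 (SE; edgeR adjusted p = 0.0062), and it stayed between -1.02 and -0.77 in the 5 fits that left out a library. The gene spans chr17:35121455-35124814 in GENCODE M21. Its body overlaps that of Csnk2b by 599 bp, and the annotated exons share 62 of the 1879 exonic bases of Gpank1. Another 287 exonic bases are shared with the antisense gene Gm20522. How the counting treated strand is not stated in the labels, and reads of the shared bases cannot be assigned. Csnk2b is far more abundant, with a control mean of 180.5 CPM beside 13.7 CPM for Gpank1. The part of Csnk2b reads in the Gpank1 counts was not tested.

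The promoter window of Gpank1, 250 bases before to 50 bases after a start site in RefSeq on GRCm38.p6 (the assembly of mm10), is printed because it shows that one annotated start lies beyond the Csnk2b gene body, which ends at 35122053. It covers chr17:35122702-35123001 on the plus strand, and no letter is in capitals because none of the motifs named further on occurs in it.
Gpank1: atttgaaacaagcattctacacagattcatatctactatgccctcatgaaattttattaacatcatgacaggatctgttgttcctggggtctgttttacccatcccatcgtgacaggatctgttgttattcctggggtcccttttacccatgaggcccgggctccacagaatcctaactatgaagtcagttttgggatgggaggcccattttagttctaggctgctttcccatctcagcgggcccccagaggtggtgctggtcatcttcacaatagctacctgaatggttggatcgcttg

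On the other side of Csnk2b, Clic1, which encodes a chloride intracellular channel protein, was the neighbour with the lowest p. Its controls stood at 101, 115 and 112 CPM and its KO libraries at 183 and 241 CPM. Both KO libraries were far above every control, with a wider gap between them than among the controls. The means were 109.1 CPM ± 7.09 (SD, n = 3) and 212 CPM ± 41.0 (SD, n = 2), which is 1.94-fold higher (edgeR adjusted p = 0.0023). Its log2 fold change of 0.96 ± 0.11 (SE) ranged from 0.74 to 1.12 when each library was left out. Clic1 lies at chr17:35049966-35058749, 57.4 kb from Csnk2b, and its exons overlap no other annotated gene. The next gene along, Ddah2, a member of the dimethylarginine dimethylaminohydrolase family, starts within 1 kb of the end of Clic1 and had a similar fold. It was at 4.12, 4.57 and 4.09 CPM in controls and 5.53 and 11.5 CPM in KO. Here KO replicate 2 was more than double KO replicate 1, and Ddah2 did not pass (log2 fold change 1.02 ± 0.27, edgeR adjusted p = 0.059; 0.033 in DESeq2). Leaving out KO replicate 1 raised its log2 fold change to 1.42, and leaving out KO replicate 2 lowered it to 0.37.

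The Clic1 promoter window, chr17:35049993-35050292 on the plus strand, is shown because Clic1 passed in every fit that left out a library, and it holds none of the motifs searched.
Clic1: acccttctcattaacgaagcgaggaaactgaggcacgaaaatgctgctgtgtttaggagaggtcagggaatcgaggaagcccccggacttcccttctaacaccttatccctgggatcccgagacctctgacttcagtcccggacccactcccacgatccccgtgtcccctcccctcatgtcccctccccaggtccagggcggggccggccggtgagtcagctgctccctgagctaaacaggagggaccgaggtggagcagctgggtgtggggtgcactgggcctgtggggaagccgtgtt

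The remaining genes within 100 kb did not pass. Of 14 neighbours there, 1 rose, 1 fell and 12 did not pass (14.3% called, beside 6.98% of all genes tested). Both KO libraries lay above all controls in 6 of the 14 (42.9%, beside 21.9% of all genes tested). They lay below all controls in 2 (14.3%, beside 19.3%). In 6 of the 14 the groups overlapped, beside 7650 of 13000 genes tested. Ly6g5b, of the Ly6 surface protein family, has its GENCODE gene body 0.8 kb from Csnk2b, on the same strand. A RefSeq promoter window of Ly6g5b, chr17:35118509-35118808, lies inside the Csnk2b gene body. What this means for its counts was not tested. Ly6g5b read 1.03, 1.22 and 1.73 CPM in controls and 0.769 and 0.713 CPM in KO. Those values rest on 10 to 25 counts a library, and its log2 fold change of -0.83 ± 0.31 did not pass (edgeR adjusted p = 0.14). Abhd16a, a phosphatidylserine lipase gene 13.2 kb away, spanned 60.7 to 71.9 CPM in controls and 63.3 to 66.1 CPM in KO. On the far side of Gpank1, D17H6S53E (6.50 to 7.39 and 7.15 to 8.36 CPM) overlapped between groups. Apom, for an apolipoprotein of high-density lipoprotein, was at 2.77 to 3.43 CPM in controls and 3.46 to 4.08 CPM in KO (edgeR adjusted p = 0.31). Bag6, a chaperone for membrane proteins, was at 420, 453 and 458 CPM in controls and 500.3 and 493 CPM in KO, which did not pass (log2 difference 0.16 ± 0.08, edgeR adjusted p = 0.24). Prrc2a, an RNA-binding protein gene, was at 701 to 794 and 813 to 852 CPM (edgeR adjusted p = 0.42). In both of these abundant genes the KO libraries were higher than every control by a margin that did not pass. Msh5 (12.2 to 14.2 and 13.2 to 14.1 CPM), a meiotic relative of the mismatch repair genes, Sapcd1 (2.15 to 2.70 and 1.84 to 3.05 CPM) and Lst1 (1.07 to 1.39 and 0.845 to 1.10 CPM), a leukocyte gene, overlapped between groups. Vwa7 was at 1.11 to 1.30 CPM in controls and 1.69 and 2.59 CPM in KO (edgeR adjusted p = 0.067), and 547 of its exonic bases are shared with Sapcd1 on the other strand. Nfkbil1, of the IκB-like family, was at 3.41 to 4.16 CPM in controls, 4.07 CPM in KO replicate 1 and 8.62 CPM in KO replicate 2, so its log2 fold change of 0.75 ± 0.28 rested on 1 library.

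**Figure D2:**
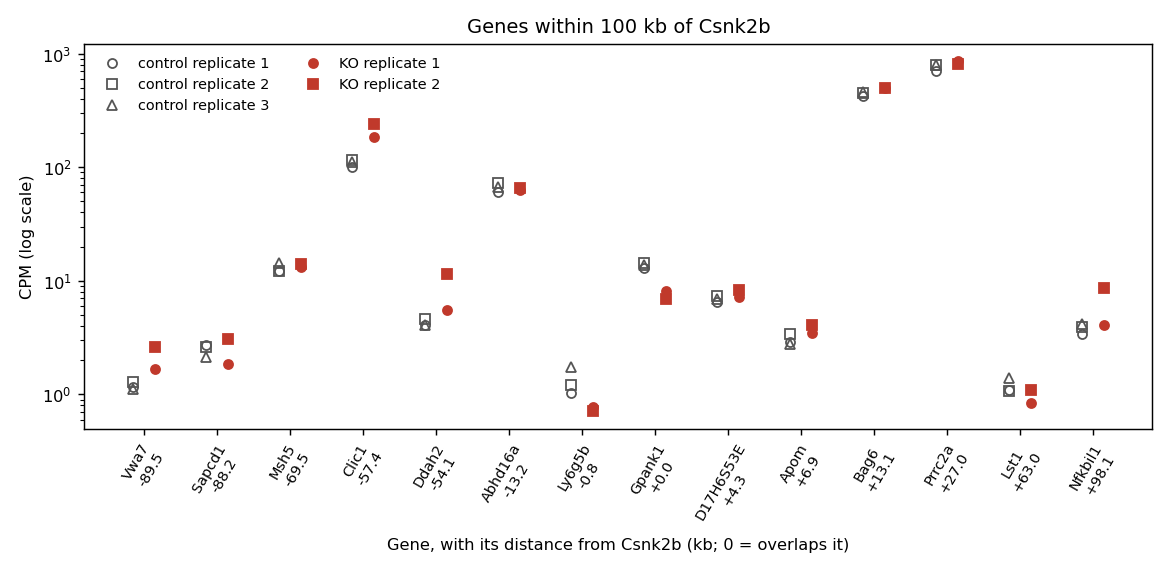
CPM on a log axis of the 14 neighbours within 100 kb of Csnk2b, ordered by distance in kb, with each control library as an open grey symbol and each KO library as a filled red one. Both KO libraries lie above all controls in 6 of the 14 genes, Clic1 among them (183 and 241 CPM). They lie below all controls in 2, Gpank1 among them, and the groups overlap in 6.

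By position, the called genes were spread over several Mb and did not gather at Csnk2b alone. Within 1 Mb 7 of 56 neighbours rose and 1 fell (14.3% called), at 1 to 2 Mb 6 of 36 rose (16.7%) and at 2 to 3 Mb 0 of 20 passed. The bins beyond are thin: 1 of 8 rose at 3 to 4 Mb and 2 of 6 at 4 to 5 Mb. Toward lower coordinates 13 of 81 neighbours rose (16.0%), and toward higher coordinates 3 of 44 (6.82%), beside 5.15% of all genes tested. The difference between the sides was not tested. Genes of chromosome 17 beyond the stretch, taken by the same level and symbol rule, had 10.9% called at 5 to 10 Mb (11 of 101, all higher), 10.5% at 10 to 20 Mb (10 higher and 6 lower of 153) and 4.95% further out. Over the other chromosomes 6.96% of 11224 genes were called. The median log2 fold change was 0.12 at 5 to 10 Mb, about that of the neighbours, and -0.01 and 0.00 further out. The 27 genes of the stretch with at least 1 CPM that were left out by symbol, Csnk2b and the class I genes among them, had 13 higher and 2 lower (55.6%), but their symbols were listed with results in view. Of the 64 neighbours on the plus strand 10 rose and 1 fell (17.2% called). Of the 62 on the minus strand 6 rose (9.68%, beside 6.98% of all genes tested called).

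**Figure D3:**
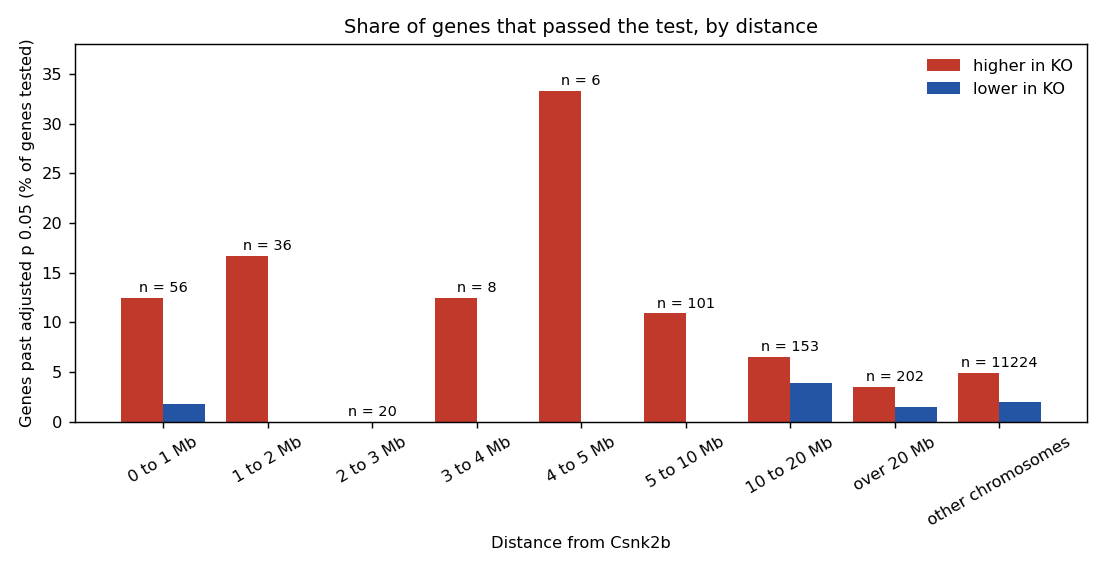
Share of genes tested that passed the edgeR test at an adjusted p under 0.05, in percent, by distance from Csnk2b, with red bars for genes higher and blue bars for genes lower in KO and the number of genes over each pair. The bars at 3 to 4 and 4 to 5 Mb stand for 1 of 8 and 2 of 6 genes, and the bar for other chromosomes covers 11224 genes.

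Chromatin and transcription genes made up the longest role list, with 21 members. Of these 3 rose and 18 did not pass (14.3% called, beside 6.98% of all genes tested). Their median log2 fold change was 0.15, and 0 passed without any 1 control. Pbx2, a TALE homeodomain factor that partners HOX proteins, was at 86.1, 89.0 and 85.7 CPM in controls and 114 and 116 CPM in KO. The libraries of each group lay close together and the groups were well apart, and Pbx2 rose 1.32-fold (edgeR adjusted p = 0.0089; 0.053 to 0.059 without any 1 control). Ring1, a ubiquitin ligase subunit of Polycomb complexes, was at 16.9, 19.5 and 18.2 CPM in controls and 23.4 and 28.9 CPM in KO, a 1.44-fold rise (edgeR adjusted p = 0.030). Daxx, a chaperone that deposits histone H3.3, was at 57.4, 62.7 and 59.2 CPM in controls and 86.4 and 71.6 CPM in KO, a 1.32-fold rise (edgeR adjusted p = 0.037). For Daxx the higher KO library was replicate 1, unlike most of the neighbours that rose, and without that library its log2 fold change was 0.24 rather than 0.40 (edgeR adjusted p = 0.066). Brd2, whose product binds acetylated histones, did not pass and spanned 284 to 298.5 CPM in controls and 302 to 310 CPM in KO (edgeR adjusted p = 0.63). Ehmt2, the H3K9 methyltransferase G9a, was at 112 to 130 CPM in controls, 129 CPM in KO replicate 1 and 175 CPM in KO replicate 2 (edgeR adjusted p = 0.13).

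Daxx shares its start region with BC051226, a non-coding RNA read in the other direction, and both rose. BC051226 was at 0.708, 0.762 and 1.04 CPM in controls and 1.54 and 2.20 CPM in KO, a 2.25-fold rise from few counts (edgeR adjusted p = 0.034, up to 0.24 when 1 library was left out, and 0.29 in DESeq2). The RefSeq windows of the pair overlap by 234 bases. The window of Daxx, chr17:33909195-33909494 on the plus strand, is printed to show that shared stretch, which is in capitals.
Daxx: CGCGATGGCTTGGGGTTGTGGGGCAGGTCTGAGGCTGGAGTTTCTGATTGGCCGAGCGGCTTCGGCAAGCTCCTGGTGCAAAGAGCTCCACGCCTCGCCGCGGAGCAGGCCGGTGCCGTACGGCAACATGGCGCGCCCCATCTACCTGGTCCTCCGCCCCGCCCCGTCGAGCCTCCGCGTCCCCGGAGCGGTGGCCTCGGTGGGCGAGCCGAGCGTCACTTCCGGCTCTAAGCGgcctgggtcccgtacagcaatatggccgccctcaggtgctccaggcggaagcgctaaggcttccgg

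Genes of metabolism and membrane transport had the highest median of the role lists, 0.53 on the log2 scale over 12 members. Of these 3 rose and 9 did not pass (25.0% called, beside 6.98% of all genes tested). In 11 of the 12 the fold change was above 1, beside 6829 of the 13000 genes tested, and in 8 both KO libraries lay above all controls (66.7%, beside 21.9% of all genes tested). The list was drawn up with results known. Without KO replicate 2 the median was 0.26, and without any 1 control 1 member, or 2 without KO replicate 2, was called. Besides Clic1, Abcg1 and Glo1 rose. Abcg1, which exports cholesterol from cells, was at 12.2, 11.1 and 11.7 CPM in controls and 20.8 and 15.5 CPM in KO, a 1.54-fold rise (edgeR adjusted p = 0.032). Glo1, the glyoxalase that detoxifies methylglyoxal, was at 118, 118 and 106 CPM in controls and 136 and 162 CPM in KO, a 1.31-fold rise (edgeR adjusted p = 0.037). Both lie toward the outer edge of the stretch, Glo1 at 4.49 Mb and Abcg1 at 3.998 Mb from Csnk2b. On the log2 scale Abcg1 went from 0.63 to 0.38 when KO replicate 1 was left out, and Glo1 from 0.39 to 0.25 when KO replicate 2 was (edgeR adjusted p = 0.058 and 0.16). Angptl4, an inhibitor of lipoprotein lipase, was at 9.22 to 10.1 CPM in controls and 11.8 and 16.4 CPM in KO, which did not pass (edgeR adjusted p = 0.073).

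In the list of protein quality control, ubiquitin and signalling enzymes 3 of 15 rose and Gpank1 fell (26.7% called, beside 6.98% of all genes tested). Shares of the lists were not tested. Rgl2, an exchange factor for Ral GTPases, was at 24.3, 26.4 and 28.2 CPM in controls and 34.7 and 39.7 CPM in KO, a 1.42-fold rise (edgeR adjusted p = 0.019). Btbd9, a BTB-domain protein gene, was at 14.7, 14.7 and 15.2 CPM in controls and 20.1 and 21.4 CPM in KO, a 1.39-fold rise (edgeR adjusted p = 0.022). Its controls agreed closely, and the KO values stood clear of them. Stk19 rose 1.27-fold, from 29.7 to 31.1 CPM in controls to 36.7 and 40.0 CPM in KO (edgeR adjusted p = 0.041). March2, a membrane-bound ubiquitin ligase gene and an abundant member of the list, spanned 383 to 459 CPM in controls and 359.6 to 403 CPM in KO. Stk19 and Btbd9 missed the threshold without any 1 control (edgeR adjusted p from 0.088 to 0.15), as did Abcg1, Glo1, Daxx and Ring1.

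Among 11 cytoskeleton and vesicle traffic genes 2 rose (18.2%, beside 5.15% of all genes tested). Kank3, of a family of adaptors at focal adhesions, was at 1.48, 2.29 and 1.66 CPM in controls and 3.23 and 4.41 CPM in KO, a 2.14-fold rise (edgeR adjusted p = 0.025). For Kank3 the adjusted p was 0.053 to 0.12 in edgeR without any 1 control, and 0.10 in DESeq2. Its exons share 88 bases with the ribosomal protein gene Rps28 on the opposite strand. Cchcr1, a coiled-coil protein gene, was at 52.7, 53.7 and 50.8 CPM in controls and 61.9 and 69.6 CPM in KO, a 1.26-fold rise (edgeR adjusted p = 0.042). For Cchcr1 the adjusted p was 0.12 to 0.17 in edgeR without any 1 control, and 0.068 in DESeq2. Tubb5, a beta-tubulin gene, was the most abundant neighbour in CPM and also per kilobase of exon, at 2226 to 2505 CPM in controls and 2113 to 2309 CPM in KO, and the groups overlapped. Its log2 fold change was -0.08 ± 0.10 (edgeR adjusted p = 0.70).

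Of 8 ribosome biogenesis and translation genes 1 rose (12.5%, beside 5.15% of all genes tested). Vars2, the mitochondrial valyl-tRNA synthetase gene, was at 37.9, 42.2 and 42.2 CPM in controls and 48.6 and 67.2 CPM in KO, just past the threshold (log2 fold change 0.51 ± 0.13, edgeR adjusted p = 0.0497; 0.061 in limma-voom). Its log2 fold change dropped to 0.25 when KO replicate 2 was left out (edgeR adjusted p = 0.19). In the list named for complement, cytokine and leukocyte genes 1 of 7 rose (14.3%, beside 5.15% of all genes tested). Its cytokine genes, Tnf, Lta and Ltb, were not among these 7. The 1 that rose was Ager, the receptor for advanced glycation end products. Ager was at 2.64, 2.29 and 2.08 CPM in controls and 3.46 and 4.67 CPM in KO (edgeR adjusted p = 0.047, and 0.25 in DESeq2). Myo1f, a leukocyte myosin gene, was at 29.8 to 37.96 CPM in controls and 26.2 to 31.4 CPM in KO and did not pass (edgeR adjusted p = 0.21), beside the lower macrophage markers given above. Adamts10, a secreted metalloprotease gene outside the lists, was at 7.46, 6.10 and 6.38 CPM in controls and 9.30 and 10.6 CPM in KO (edgeR adjusted p = 0.049; 0.16 in DESeq2).

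None of the 12 zinc finger genes with Zfp symbols and none of the 12 genes of RNA splicing, helicases and RNA decay passed in edgeR, DESeq2 or limma-voom, and none had an unadjusted edgeR p under 0.05 (0 of 12 in each list); without KO replicate 1, 2 zinc finger genes were called lower. The zinc finger genes, all between 1.484 and 2.328 Mb toward lower coordinates, ranged around a median of -0.10 on the log2 scale, from -0.38 to 0.32. The one with the highest CPM, Zfp871, was at 65.2 to 67.8 CPM in controls, 65.6 CPM in KO replicate 1 and 49.1 CPM in KO replicate 2. The RNA genes ranged from -0.12 to 0.16 with a median of 0.03. Hnrnpm, a splicing factor gene, spanned 365 to 375 CPM in controls and 351 to 407 CPM in KO, and Ddx39b, an RNA helicase of splicing and export, 336 to 361 and 349.9 to 358 CPM. The range of the RNA genes was the narrowest of the lists. Over all 13000 genes tested 907 were called, and 3097 had an unadjusted edgeR p under 0.05.

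**Figure D4:**
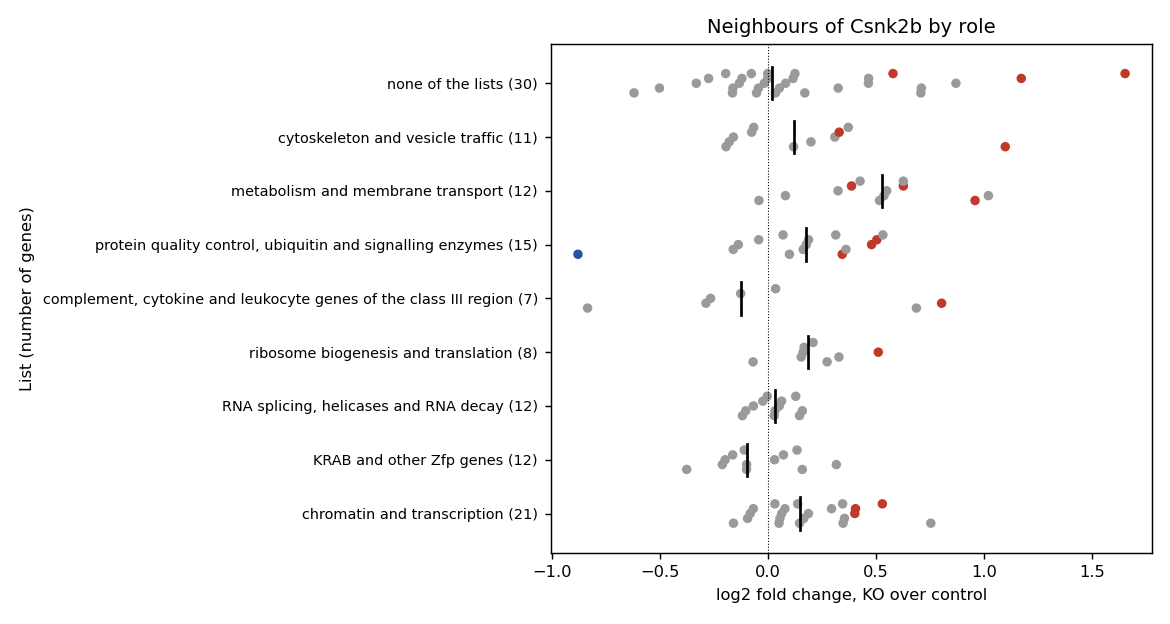
Log2 fold change, KO over control, of the 126 neighbours by role list, with the number of genes in brackets, red for higher, blue for lower and grey for genes that did not pass, and a black bar at each list's median. The medians run from -0.13 for the list named for complement, cytokine and leukocyte genes to 0.53 for metabolism and membrane transport. The former holds no cytokine gene among its members, and 2 genes, Nelfe and Mdc1, stand in 2 lists.

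Several neighbours are named here after their values were seen. A930015D03Rik, an antisense RNA 872 kb from Csnk2b, had the highest fold of the neighbours: 0.772, 0.762 and 0.902 CPM in controls and 2.69 and 2.46 CPM in KO, a 3.14-fold rise (edgeR adjusted p = 0.0027). Of its 1111 exonic bases 1003 are shared with the class I gene H2-T22 on the other strand, which rose 2.97-fold, from 9.38 to 10.7 CPM in controls to 41.0 and 18.3 CPM in KO. Reads of that stretch cannot be assigned to one of the genes without strand. Trim10, an erythroid RING finger gene, was next to Tubb5 per kilobase of exon and overlapped between groups at 1361 to 1489 and 1237 to 1390 CPM. Gm42418, a locus known to collect ribosomal RNA reads, was at 806, 1178 and 828 CPM in controls and 1310 and 1278 CPM in KO, with an edgeR adjusted p of 0.11, and 0.028 without control replicate 2. It shares 1822 of its 1831 exonic bases with CT010467.1 on the other strand. Among other neighbours named here, exonic bases are shared with a gene on the opposite strand by Vars2 (465 with Gm20483), Glo1 (418 with AC165962.3 and 214 with AC165962.4), Btbd9 (189 with AC165962.1), Brd2 (405 with CR974462.3 and 360 with H2-DMa), Nfkbil1 (144 with Atp6v1g2 and 143 with Gm16181) and D17H6S53E (68 with Gm20522). Bases are shared on the same strand by Pbx2 and Gpsm3 (227), Btbd9 and AC174471.1 (1255), Glo1 and 1700097N02Rik (90), Hnrnpm and March2 (1169) and Ddx39b with Gm22589 and Mir8094 (77 and 90). How the authors' counting assigned reads in such bases is not stated.

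Trim26, a RING finger ubiquitin ligase gene in the same TRIM cluster as Trim10, was at 23.5, 26.1 and 29.4 CPM in controls and 54.0 and 32.3 CPM in KO replicates 1 and 2. Both KO libraries were above every control, and KO replicate 1 was well above KO replicate 2. KO replicate 1 was the higher in 51 of the 126 neighbours. It also had the higher interferon sum, and a link between these values was not tested. For Trim26 the log2 fold change of 0.71 ± 0.19 did not pass in edgeR (adjusted p = 0.060) and did in DESeq2 (adjusted p = 0.0055). That fold change was 0.28 without KO replicate 1. Promoter windows of the neighbours were searched on both strands for the interferon element core (GAAA, NN, GAAA in a row), the ATF response element TGATGNAA and the GATA element AGATAA. RefSeq windows matched 93 of the 126 neighbours by symbol. The interferon core was in 2 of those 93 genes (2.15%), beside 3.99% of 27025 genes with a window. The 2 were Trim26 and Slc37a1, and neither passed the edgeR threshold. Of the 11 genes that rose and had a window, 0 held the core. The ATF element was in 3 of the 93 (3.23%, beside 4.51% of all), with Ager the 1 among those that rose. The GATA element was in 11 (11.8%, beside 12.7%), and in 0 of those that rose. These matches are a description and do not show a site in use. The window of Trim26, chr17:36836896-36837195 on the plus strand, is printed because it holds 2 overlapping matches to the interferon core, in capitals, from 160 to 145 bases before the start.
Trim26: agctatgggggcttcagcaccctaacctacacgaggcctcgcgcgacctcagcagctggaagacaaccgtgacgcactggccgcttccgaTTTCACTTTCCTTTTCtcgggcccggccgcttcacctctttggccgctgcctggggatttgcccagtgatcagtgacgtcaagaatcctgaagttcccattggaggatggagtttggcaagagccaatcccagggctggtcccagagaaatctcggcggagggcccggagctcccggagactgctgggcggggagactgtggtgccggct

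**Figure D5:**
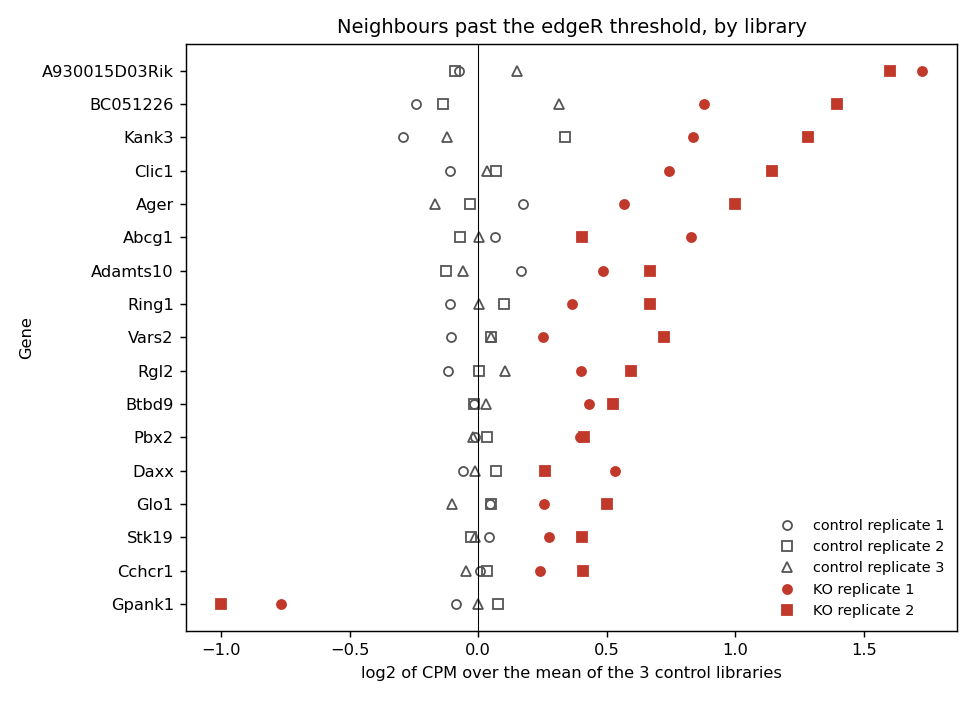
Log2 of CPM over the mean of the 3 controls for the 17 neighbours past the edgeR threshold, with open grey symbols for control and filled red symbols for KO libraries. In all 17 both KO libraries lie on one side of the controls. Gpank1 is the 1 below, and among the 16 above KO replicate 1 is the higher in Abcg1, Daxx and A930015D03Rik.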

How the data were processed

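Per the labels' protocols, TER119-positive cells were sorted, poly(A) RNA was isolated and libraries were sequenced on Ion Proton. The submitters' processing notes name cutadapt, STAR, Bowtie, HTSeq and mm10, without versions; strand use and multiply mapped reads are not described in the sources used here. The authors deposited raw counts per Ensembl gene. Positions, exons and symbols came from GENCODE M21 (GRCm38), which lacked 1486 of the 39179 identifiers; promoter windows came from RefSeq on GRCm38.p6.

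The members, lists and tests were chosen with earlier results of these data known. The level cut used unscaled CPM; printed CPM use TMM-adjusted library sizes (factors 0.970 to 1.03). edgeR 4.0.16 in R 4.3.3 (glmQLFit, glmQLFTest, filterByExpr, group only, 3 residual degrees of freedom) tested 13000 genes, with Benjamini-Hochberg adjustment over all of them. SE came from the fold change and F statistic. The steps were tested on simulated counts. Every member passed the low-count filter. The values of 1 member are not reported here.

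Named were members within 100 kb; up to 15 largest increases and decreases past the threshold where 1 group mean reached 2 CPM; the 6 most abundant; 2 per role list by p, or the most abundant; and the 3 on each side of the level cut. Predicted genes, RIKEN clones and others named outside this rule were chosen after their values were seen. Alternatives were RLE scaling, DESeq2 1.42.0, limma-voom (limma 3.58.1), other filters, windows and level cuts, a replicate block and leaving out each library. Read counts carry no molecular identifiers.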

Additional observations from a re-analysis of the deposited data

How the results depend on the processing

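The count of neighbours called higher, 16 in the main analysis, was 16 with RLE scaling, 14 with limma-voom, 11 with DESeq2 and 12 with the replicate block, and 3 without a filter on low counts. In all, RLE scaling, limma-voom and the replicate block called 17, 15 and 15 of 126 neighbours. Beside these stood 917, 842 and 873 of 13000 genes. With DESeq2 it was 12 of 126, beside 858 of the 21077 genes fitted. Leaving out a library gave 2 to 30 called higher, 1 to 5 called lower, 3 to 35 called in all and 241 to 2956 genes called over the whole table; the highest values came without KO replicate 1. Without the filter 4 of 126 neighbours and 288 of 21077 genes were called in all. Windows of 1 Mb and 10 Mb gave 7 and 27 called higher and 8 and 28 in all, of 56 and 227 genes, by their construction. Requiring 1 CPM in the controls alone, added after seeing the data, gave 14 higher and 1 lower of 124. With the replicate block 3 neighbours were called lower and 15 in all; 11 of the 17 calls were shared. Same-numbered libraries had correlations of deviations from the group mean of 0.0016 and 0.042 over the genes tested. The deviations of 2 KO libraries mirror each other, and a link limited to some genes would be missed. These values therefore cannot decide whether the numbers pair the libraries. DESeq2 shared 10 of the 17 calls. Directions were compared for the 33 neighbours named by rule and were not counted for the others. Among the 33 they turned in 5 cases, each of a gene that never passed. Hnrnpm was at -0.088 without KO replicate 2 (-0.088 to 0.11 over the 5 fits). Abhd16a was at 0.012 without control replicate 2 (-0.108 to 0.012). Sapcd1 was at 0.066 and 0.026 without control replicates 1 and 2 and 0.27 without KO replicate 1 (-0.43 to 0.27). The cause of these changes was not tested. With 2 KO libraries, small folds and genes near 1 CPM are at the limit of what can be called.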

Other observations

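Of the 292 genes of the stretch under 1 CPM, 11 passed the low-count filter and were tested. None of these 11 was called in edgeR, beside 6.98% of all genes tested. Among the 11, 0 had an unadjusted edgeR p under 0.05, and log2 fold changes ranged from -0.64 to 0.70. Of the 126 neighbours 109 are protein coding and 17 are not. The 17 include 6 processed pseudogenes, 3 antisense RNAs and the microRNA gene Mir8094. Mir8094 shares 90 of its 117 bases with an exon of Ddx39b. It was at 1.25 to 1.35 CPM in controls and 1.17 to 1.31 CPM in KO. Of the 17, A930015D03Rik and BC051226 rose (2 genes, 11.8%), beside 12.8% of the 109 and 5.15% of all genes tested. Among the 54 neighbours whose exons overlap another annotated gene 6 rose and 1 fell, and among the 72 without such an overlap 10 rose. The promoter windows of called neighbours had a median GC content of 65.7% over 15 windows of 12 genes. It was 58.0% over the 131 windows of the 93 neighbours with one and 52.7% over 32851 windows of the genome. Windows of Daxx overlap each other, as do those of Cchcr1, and 234 bases are shared by Daxx and BC051226. The median thus counts some GC-rich bases more than once, and the difference was not tested.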
